A study of Mus musculus with 3 samples.

Results

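The complement genes described here are the 9 rows of the expression table whose gene name was C1qa, C1qb, C1qc, C3, Cfb, Cfp, C3ar1, C5ar1 or Serping1, of 55487 genes in all, and all 9 were found once. Their RNA was measured in dendritic cells grown in culture from the bone marrow of wild-type mice (BMDCs), cells that take up microbes and show their antigens to T cells. The 3 cultures were treated with YB328 (a gut bacterial strain), treated with P. vulgatus (another gut bacterium) or left untreated, and each gave 1 library. The comparisons ask how the cells differ after contact with each bacterium. With 1 library a group there is no replicate check, and the sources used here give neither the dose and time of contact nor the culture's growth factors.

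Complement is a set of secreted proteins that mark microbes and dying cells and call in phagocytes. C1q, bound to antibody or to a surface, starts the classical pathway, and all pathways meet at C3, whose cleavage coats the target and frees a small fragment that binds its receptor C3ar1. Factor B (Cfb) and properdin (Cfp) build and hold together the enzyme of the alternative pathway, C5ar1 is the receptor for the fragment freed from C5, and Serping1 encodes the inhibitor of the C1 proteases. The liver makes most circulating complement, while macrophages and dendritic cells are known local sources of C1q, C3, factor B and properdin.

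To follow 1 gene between libraries the text uses CPM, its count relative to the scaled library total, and to set genes side by side it uses the deposited TPM, which correct for length. A gene is said to rise or fall, or is called higher or lower, under a rule of size with 3 parts: 5 CPM or more in 1 library, a 2-fold ratio once 0.5 CPM is added on both sides, and 1 outside the exact 95% interval of the count ratio. Such intervals, and the floors given for counts of 0, cover counting error only, since PCR copies of one molecule cannot be recognised here. Summed counts were 26924006 with YB328, 26660870 with P. vulgatus and 15538133 untreated. Ribosomal and mitochondrial genes took 1.28% of counts with YB328 and 2.04% with P. vulgatus, against 26.8% untreated, and the part of this difference in the comparisons below was not tested beyond the alternatives given. All 8 dendritic markers listed reached 5 CPM in at least 1 library, while Kmo stood at 3.74 CPM with P. vulgatus. The class II chaperone gene Cd74 stood at 6811 CPM with YB328, 6564 CPM with P. vulgatus and 4746 CPM untreated. Itgax, another usual dendritic marker, was not on this list and fell with both bacteria, as given below. With each bacterium 1 of the 8 rose, Ccr7, a receptor of migrating dendritic cells (6.92-fold with YB328 and 7.46-fold with P. vulgatus), and 2 fell, Dpp4 (2.77-fold and 2.17-fold) and Kmo (3.36-fold and 4.94-fold). In a bulk culture, fewer cells of a type and less RNA per cell cannot be told apart.

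Of the 9 genes, Cfb and C3ar1 rose with both bacteria, Cfp fell with both, and the other 6 made no call against untreated cells. That is 3 of the 8 genes that reached 5 CPM, or 37.5%, with each bacterium, against 43% of 10701 genes for YB328 and 44% for P. vulgatus, so the share of complement genes called was close to the background. By direction, 24.5% of genes were higher and 18.4% lower with YB328, and 25% were higher and 19% lower with P. vulgatus. With TPM in place of CPM, 74.9% of the calls for YB328 and 70.3% of those for P. vulgatus were higher, against 57.1% and 56.9% with CPM. The median log2 ratio of the 8 genes was 0.13 with YB328 and -0.27 with P. vulgatus, beside 0.17 and 0.14 over all genes. Serping1 stayed below 5 CPM in each library, and 7 of the 8 others were at or above it in all 3.

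**Figure D1:**
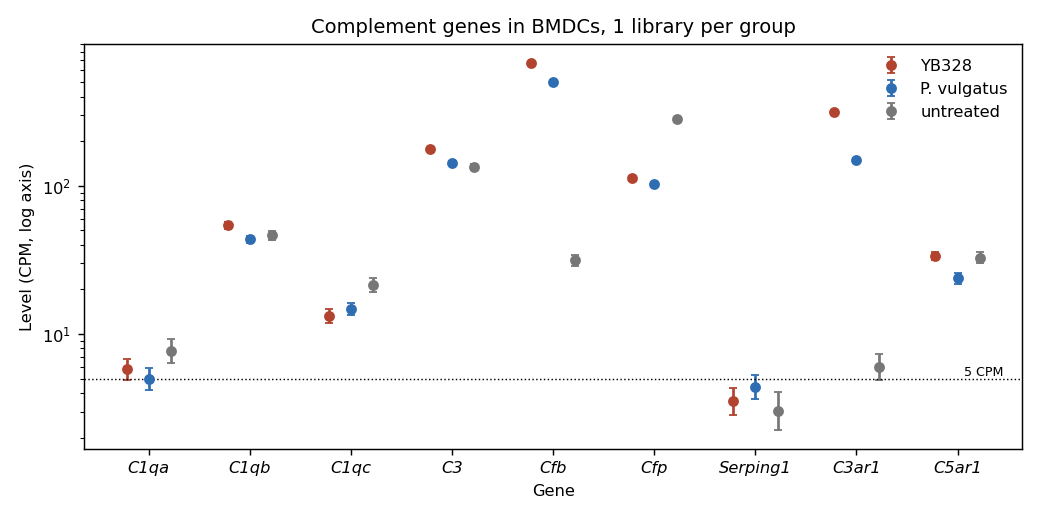
Level of each complement gene in the 3 libraries, in CPM on a log axis, with exact 95% Poisson intervals and a dotted line at 5 CPM. Cfb and C3ar1 lie far higher in the YB328 and P. vulgatus libraries than in the untreated library, Cfp lies lower, and the other genes differ less.

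**Figure D2:**
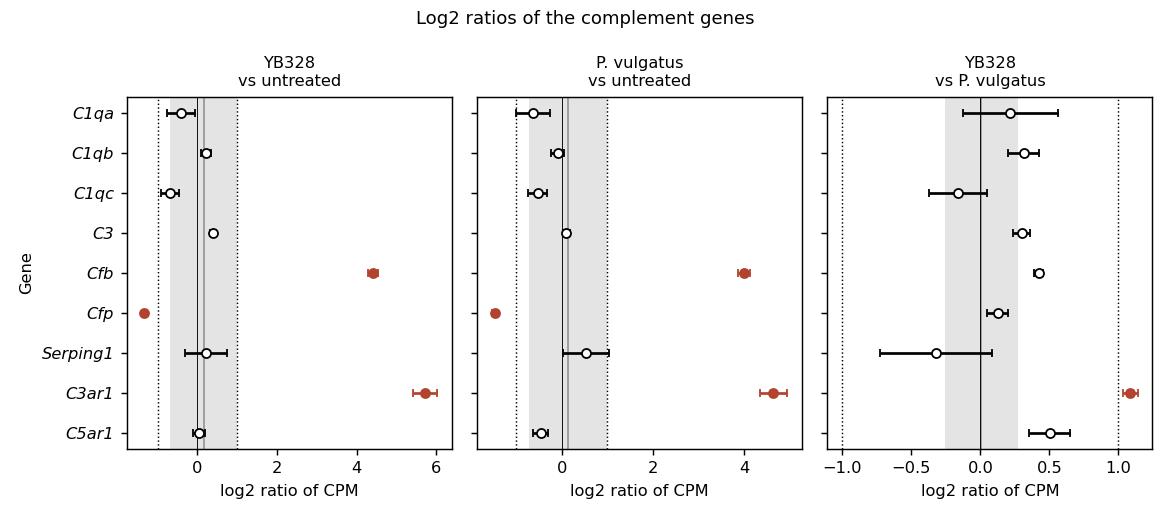
Log2 ratio of CPM of each complement gene in the 3 comparisons, with 95% counting intervals; filled red points are calls, dotted lines mark a log2 ratio of 1 in size, and the grey band and line give the quartiles and the median of all genes tested, computed with 0.5 CPM added. Cfb and C3ar1 stand to the right of the band in both comparisons with untreated cells, and C3ar1 alone makes a call between the bacteria.

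The 3 genes of C1q lie side by side on the minus strand of chromosome 4 (GRCm38). C1qa (ENSMUSG00000036887.5, 136895917 to 136898803), C1qc (ENSMUSG00000036896.5, 136889804 to 136893065) and C1qb (ENSMUSG00000036905.8, 136880129 to 136886187) follow each other with gaps of 2851 and 3616 bases. Each encodes 1 of the 3 chains that are assembled in equal number into the C1q molecule. None made a call. C1qb, the most abundant of them per length, had 1475 counts (54.0 CPM) with YB328, 1150 counts (43.4 CPM) with P. vulgatus and 714 counts (46.3 CPM) untreated. C1qc had 361 counts (13.2 CPM) with YB328, 391 counts (14.8 CPM) with P. vulgatus and 329 counts (21.3 CPM) untreated. C1qa had 158 counts (5.79 CPM), 132 counts (4.99 CPM) and 119 counts (7.71 CPM) in the same order of libraries. C1qa was thus the scarcest chain in each library, close to the minimum, and with TPM its log2 ratio for YB328 changed sign, to 0.09. C1qc with YB328 stood at 0.620 times untreated (95% interval 0.532 to 0.722) and C1qb at 1.17 times (1.07 to 1.28).

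Ratios within a library need no scaling between libraries. C1qb stood at 4.61 times C1qc in TPM with YB328 and 3.33 times with P. vulgatus, against 2.66 times untreated. In counts this ratio of C1qb to C1qc was 1.88 times as large with YB328 as untreated (95% interval 1.58 to 2.25) and 1.36 times as large with P. vulgatus (1.13 to 1.62). C1qb over C1qa was 8.71 and 8.14 in TPM with YB328 and P. vulgatus, against 6.10 untreated. C1qa over C1qc differed less, at 0.530 with YB328 and 0.409 with P. vulgatus, against 0.436 untreated, and the interval of its ratio between libraries held 1 in each comparison. These pairs were chosen after their values were seen.

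**Figure D3:**
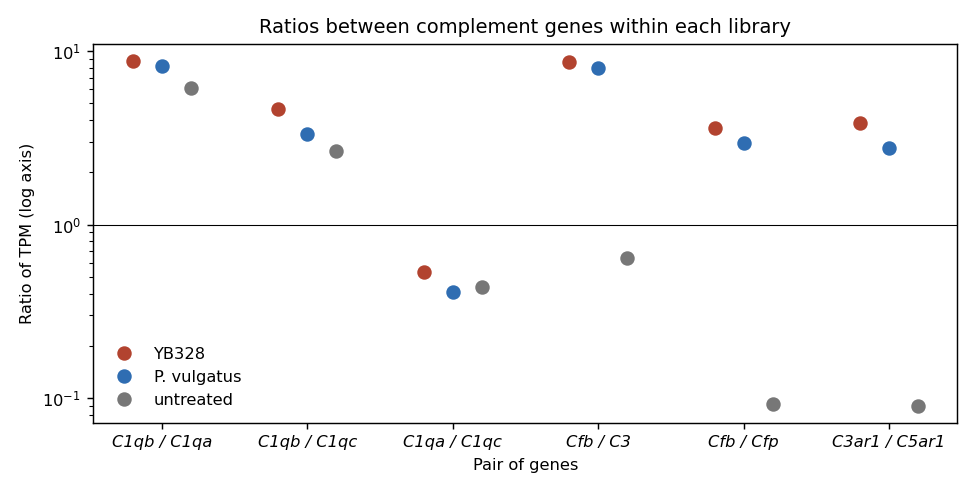
Ratio of TPM between pairs of complement genes inside each library, on a log axis, 1 point per library. C1qb over C1qa and over C1qc is higher in the treated libraries, and the ratios of Cfb to C3, Cfb to Cfp and C3ar1 to C5ar1 lie below 1 in untreated cells and above 1 with either bacterium.

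Since C1qb and C1qc are neighbours whose ratio differed between libraries, the stretch around the start of each is shown, from RefSeq on GRCm38.p6, minus strand, 250 bases before to 50 after the start. Capitals mark matches, on either strand, to the 5 motifs searched. C1qb lies at chr4:136886151-136886450 and C1qc at chr4:136892865-136893164.
C1qb: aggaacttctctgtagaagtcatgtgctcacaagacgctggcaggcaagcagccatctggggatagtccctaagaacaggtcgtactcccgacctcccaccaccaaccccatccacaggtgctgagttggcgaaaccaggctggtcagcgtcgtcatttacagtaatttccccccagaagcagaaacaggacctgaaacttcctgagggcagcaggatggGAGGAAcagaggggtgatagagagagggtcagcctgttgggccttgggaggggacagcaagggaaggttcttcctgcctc
C1qc: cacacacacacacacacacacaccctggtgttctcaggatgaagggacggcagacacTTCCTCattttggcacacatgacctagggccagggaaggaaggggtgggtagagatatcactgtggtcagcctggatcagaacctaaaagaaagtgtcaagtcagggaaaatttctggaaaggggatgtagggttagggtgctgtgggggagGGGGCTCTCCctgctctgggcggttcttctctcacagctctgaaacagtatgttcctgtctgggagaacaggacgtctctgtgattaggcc
C1qb holds the PU.1 core GAGGAA at base -30 from the start. C1qc holds it on the other strand at -193, and an NF-kB match at -41. Of 32851 windows of this length in RefSeq, 28.3% hold the PU.1 core and 8.46% the NF-kB motif. PU.1 is a factor of the myeloid lineage, and a match describes letters only. RefSeq windows were found for 6 of the 9 genes, and Cfb, C1qa and Serping1 had none in the table.

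Macrophages are the best known source of C1q, and 8 of 10 macrophage markers reached 5 CPM. Their summed level was 2108 CPM with YB328 and 1442 CPM with P. vulgatus, against 490.3 CPM untreated. Against untreated cells 5 rose and 1 fell with each bacterium, beside 43% and 44% of all genes called with YB328 and P. vulgatus. Timd4, a marker of resident macrophages, had 0 counts in each library. Vsig4, a complement receptor of such macrophages, had 4, 4 and 3 counts. The part of macrophages in the C1q levels was not tested.

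Liver genes were read too, and all those listed but Hp differed less in counts between libraries than the library totals did. All 6 hepatocyte markers reached 5 CPM. Albumin (Alb) had 1325 counts with YB328, 1392 with P. vulgatus and 1273 untreated, and Serpina1a, an antitrypsin gene with close copies, had 140.5, 136.2 and 139.9. Fgb had the highest ratios to untreated of those other than Hp, 1.42 with YB328 and 1.28 with P. vulgatus. Hp had 8019, 8962 and 862 counts, and with it the list summed to 3.32 and 3.65 times untreated. Without Hp, which rose with both bacteria and was set aside after its values were seen, the other 5 summed to 2472, 2560 and 2298 counts, a ratio to untreated of 1.08 with YB328 and 1.11 with P. vulgatus. The library totals had ratios of 1.73 and 1.72. C1qc had unscaled ratios of 1.10 and 1.19 and C1qa of 1.33 and 1.11, nearer to those of the liver genes, while C1qb had 2.07 and 1.61. C5ar1 had 1.82 with YB328 and 1.24 with P. vulgatus, so its second ratio also lay among those of the liver genes. On the scaled CPM, the log2 ratio to untreated was -0.39 with YB328 and -0.58 with P. vulgatus for C1qa. For C1qc it was -0.67 and -0.51. Over all 10701 genes tested, the lower quartile was -0.69 with YB328 and -0.71 with P. vulgatus, and the median 0.17 and 0.14. Both genes thus lay between the lower quartile and the median, where ratios of this size are common. The part of any RNA from outside the cells in the C1qa and C1qc counts was not tested.

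**Figure D4:**
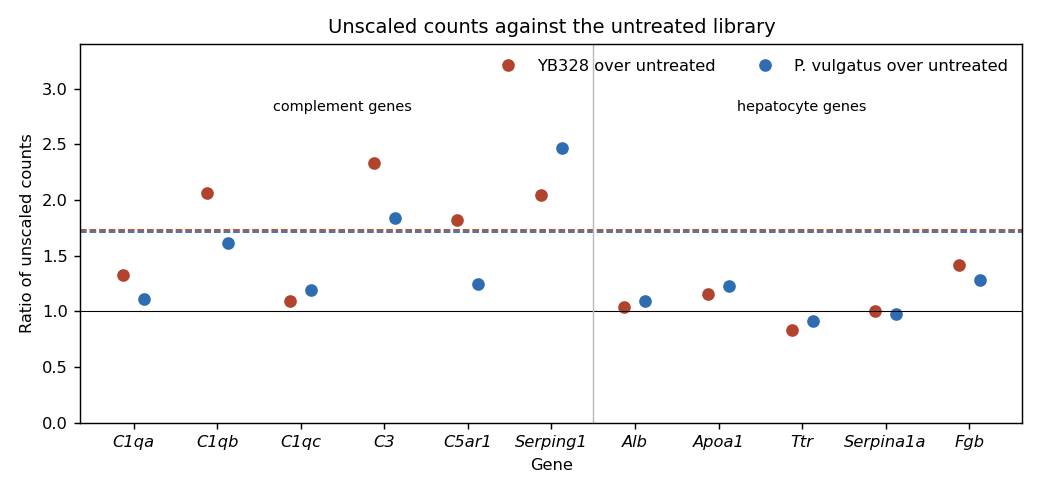
Ratio of unscaled counts of the YB328 and P. vulgatus libraries over the untreated library for 6 complement genes and 5 hepatocyte genes; dashed lines give the ratio of library totals and the solid line marks equal counts. C1qa and C1qc lie between 1.10 and 1.33, among the hepatocyte genes at 0.837 to 1.42, and C1qb and C3 lie at 1.61 to 2.33. C5ar1 lies at 1.82 with YB328 and, among the hepatocyte genes, at 1.24 with P. vulgatus. Serping1 lies at 2.04 with YB328 and 2.47 with P. vulgatus.

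Of 15 other genes of the classical and lectin pathways, 2 reached 5 CPM, both proteases of the C1 complex. C1ra rose to 23.5 CPM with YB328 and 15.8 CPM with P. vulgatus, against 3.23 CPM untreated, 7.26-fold (95% interval 5.43 to 9.86) and 4.90-fold (3.64 to 6.69). C1s1, its substrate and partner, stood at 6.88 CPM with YB328, 1.10 CPM with P. vulgatus and 4.54 CPM untreated, a fall of 4.15-fold with P. vulgatus (2.65 to 6.62) and no call with YB328. The call for C1s1 with P. vulgatus ended with TPM and with a minimum of 20 CPM, where the gene was below the minimum. Stromal cells are a known source of C1r and C1s. Of 6 stromal markers 5 reached 5 CPM, and 1 rose and 3 fell with each bacterium. Over all genes tested, 43% were called with YB328 and 44% with P. vulgatus. The 6 markers summed to 39.1 CPM with YB328 and 30.0 CPM with P. vulgatus, against 520.6 CPM untreated. The difference in this sum lay mostly in collagen genes. Col1a1 stood at 2.27 CPM with YB328 and 2.08 CPM with P. vulgatus, against 204.6 CPM untreated. Col1a2 stood at 4.54 and 3.10 CPM, against 281.7 CPM. Pdgfra, below the minimum, had 1 count with YB328 and 4 with P. vulgatus, against 57 untreated. That is 101-fold lower (17.4 to 4053) and 24.4-fold lower (9.04 to 92.8). Lum, which encodes the matrix proteoglycan lumican, rose to 8.35 CPM with YB328 and 12.1 CPM with P. vulgatus, against 2.01 CPM untreated, and Dcn made no call. The part of stromal cells in the C1ra and C1s1 levels was not tested. Both genes have close copies, C1rb and C1s2, and the split of reads between copies is uncertain. The next components of the pathway were scarce. C2 stood at 34, 21 and 15 counts and C4b at 23.0, 32.0 and 37 counts with YB328, with P. vulgatus and untreated. The lectins Mbl1, Mbl2, Fcna and Fcnb and the proteases Masp1 and Masp2 all stayed below 2 CPM.

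C3 (ENSMUSG00000024164.15, chromosome 17, 57203970 to 57228136, minus strand), the protein on which all pathways meet, made no call. It had 4806 counts (176 CPM) with YB328, 3786 counts (143 CPM) with P. vulgatus and 2064 counts (134 CPM) untreated. The YB328 value was 1.32 times untreated (1.25 to 1.39) and the P. vulgatus value 1.07 times (1.01 to 1.13), both under the ratio of 2 that the rule asks.

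Cfb (ENSMUSG00000090231.10, chromosome 17, 34856374 to 34862518, minus strand), the factor B gene of the alternative pathway, rose to 18294 counts (669.9 CPM) with YB328 and 13222 counts (499.5 CPM) with P. vulgatus, against 484 counts (31.4 CPM) untreated. That is 21.4-fold with YB328 (95% interval 19.5 to 23.4) and 15.9-fold with P. vulgatus (14.5 to 17.5), log2 ratios of 4.39 and 3.97. Factor B supplies the protease that cleaves C3 in the alternative pathway, and its transcript overtook that of C3: Cfb over C3 was 8.57 in TPM with YB328 and 7.97 with P. vulgatus, against 0.643 untreated. Its neighbour C2, which ends 85 bases upstream on the same strand and encodes the matching protease of the classical pathway, stayed below the minimum, at 1.25, 0.793 and 0.972 CPM with YB328, with P. vulgatus and untreated. Gm20547, which shares 2246 exon bases with Cfb on its strand, was listed at 0 counts in each library, so the counts assigned to Cfb rest on how such reads were counted.

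Cfp (ENSMUSG00000001128.7, chromosome X, 20925454 to 20931555, minus strand), the gene of properdin, which stabilises the enzyme that factor B forms, fell. It had 3061 counts (112 CPM) with YB328 and 2720 counts (103 CPM) with P. vulgatus, against 4356 counts (282 CPM) untreated. The level was 2.52-fold lower with YB328 (95% interval 2.40 to 2.64) and 2.75-fold lower with P. vulgatus (2.62 to 2.88). With the deposited TPM the call for YB328 ended, at a log2 ratio of -0.98, beside a median over all genes of 0.61 on that scale. Cfp was the most abundant of the 9 genes in untreated cells, at 172.7 TPM, and Cfb was in both treated libraries, at 312.9 TPM with YB328 and 224.0 TPM with P. vulgatus. Cfb over Cfp was 3.58 in TPM with YB328 and 2.96 with P. vulgatus, against 0.0926 untreated. Factor D (Cfd), the protease that activates factor B, had 0 counts in each library. The floor of 3 counts corresponds to 0.110 CPM with YB328, 0.113 CPM with P. vulgatus and 0.194 CPM untreated. The exact 95% intervals reach further, to 0.135, 0.139 and 0.239 CPM in the same order.

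Neutrophils are a known source of properdin, and those of their markers that reached 5 CPM were lower in the same libraries as Cfp. Of 9 neutrophil markers 6 reached 5 CPM, and all 6 fell with each bacterium. Over all genes tested, 18.4% were lower with YB328 and 19% with P. vulgatus. The 9 markers summed to 294 CPM with YB328 and 331 CPM with P. vulgatus, against 4414 CPM untreated, and none was at 0. S100a8 and S100a9, the calprotectin genes, made up most of it, while Elane stayed below 1 CPM in each library. Ly6g and Retnlg also stayed below the minimum. With P. vulgatus their ratios to untreated were 0.725 (0.481 to 1.10) and 0.709 (0.449 to 1.13). That of Elane was 0.583 (0.240 to 1.42), and all these intervals held 1. With YB328 the ratios were 0.138 (0.0644 to 0.271) for Ly6g and 0.565 (0.348 to 0.916) for Retnlg, intervals below 1. That of Elane with YB328 was 0.377 (0.134 to 1.002), an interval that held 1. The part of neutrophils in the Cfp level was not tested. Of 6 monocyte markers, another possible source, 5 reached 5 CPM, and they summed to 448.6 CPM with YB328, 483.8 CPM with P. vulgatus and 509.0 CPM untreated. The sum joins genes that went opposite ways: 1 rose and 1 fell with YB328, and 2 rose and 1 fell with P. vulgatus. Beside these stand 43% and 44% of all genes called. Ccr2, the chemokine receptor of inflammatory monocytes, fell to 4.11 CPM with YB328 and 0.303 CPM with P. vulgatus, against 141 CPM untreated, while Ly6c2, a surface marker of the same cells, rose to 240 and 185 CPM, against 81.6 CPM.

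The window around the start of Cfp, the gene that fell, and that of C3ar1, the gene that rose most, are shown for contrast, in the same layout, at chrX:20931506-20931805 and chr6:122856108-122856407, both on the minus strand.
Cfp: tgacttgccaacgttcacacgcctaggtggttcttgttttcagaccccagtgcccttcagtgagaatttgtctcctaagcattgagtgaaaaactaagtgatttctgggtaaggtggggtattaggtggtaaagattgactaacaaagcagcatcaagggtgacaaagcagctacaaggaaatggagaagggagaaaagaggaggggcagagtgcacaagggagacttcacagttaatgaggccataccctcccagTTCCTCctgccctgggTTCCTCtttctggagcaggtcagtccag
C3ar1: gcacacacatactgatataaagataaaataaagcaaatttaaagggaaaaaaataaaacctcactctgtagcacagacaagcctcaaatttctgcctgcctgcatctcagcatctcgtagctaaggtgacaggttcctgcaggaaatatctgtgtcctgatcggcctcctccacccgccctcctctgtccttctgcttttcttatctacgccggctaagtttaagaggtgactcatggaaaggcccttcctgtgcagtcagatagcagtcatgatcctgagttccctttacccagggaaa
Cfp holds the PU.1 core on the other strand 2 times, at bases 7 and 23 after the start, and C3ar1 holds a match to none of the 5 motifs. The other motifs searched, on both strands, were the interferon-stimulated response element (GAAA, any 2 bases, GAAA), the gamma-activated site (TTC, any 3 bases, GAA) and the C/EBP motif (TTGC, any 2 bases, AA). They occur in 3.44%, 8.30% and 10.8% of windows. Among the 6 genes with a window, 0 held either interferon motif, and C3 alone held the C/EBP motif, at base -45. None of the matches overlapped another.

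C3ar1 (ENSMUSG00000040552.8, chromosome 6, 122847138 to 122856161, minus strand), a G protein-coupled receptor for the small fragment of C3, had the largest change of the 9 genes. It rose to 8650 counts (317 CPM) with YB328 and 3953 counts (149 CPM) with P. vulgatus, against 93 counts (6.03 CPM) untreated. The rise was 52.6-fold with YB328 (95% interval 42.8 to 65.2) and 24.8-fold with P. vulgatus (20.2 to 30.8), log2 ratios of 5.60 and 4.52. Per length it was the lowest of the 9 genes in untreated cells, at 1.20 TPM, and the second in the YB328 library, at 90.3 TPM.

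C5ar1 (ENSMUSG00000049130.6, chromosome 7, 16246743 to 16259540, minus strand), the matching receptor for the fragment of C5, made no call. It had 918 counts (33.6 CPM) with YB328, 628 counts (23.7 CPM) with P. vulgatus and 505 counts (32.7 CPM) untreated. The ratio to untreated was 1.03 with YB328 (0.920 to 1.15) and 0.725 with P. vulgatus (0.644 to 0.817), neither of them a call. C3ar1 over C5ar1 was 3.85 in TPM with YB328 and 2.74 with P. vulgatus, against 0.0908 untreated. In counts that ratio was 51.1 times as large with YB328 as untreated (40.5 to 65.2) and 34.1 times with P. vulgatus (26.9 to 43.8). C5ar2, the decoy-like second receptor that lies 2588 bases from C5ar1, had 20 counts (0.732 CPM) with YB328, 18 counts (0.680 CPM) with P. vulgatus and 77 counts (4.99 CPM) untreated. Its level was 6.81-fold lower with YB328 (4.12 to 11.8) and 7.34-fold lower with P. vulgatus (4.35 to 13.03), no call only because the untreated level missed the minimum of 5 CPM. It was called lower with both bacteria under 5 of the 10 alternatives, among them median-of-ratios scaling and thinning to equal depth.

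C3ar1 is also a gene of monocytes and macrophages, and several macrophage markers rose beside it. Cd68, a lysosomal glycoprotein gene, stood at 722 CPM with YB328 and 322 CPM with P. vulgatus, against 74.5 CPM untreated, and Adgre1, which encodes F4/80, at 397.6 and 264 CPM, against 42.8 CPM. Mrc1, the mannose receptor gene, fell to 2.27 and 6.12 CPM, against 29.6 CPM untreated. The part of a change in cell types in the C3ar1 level was not tested.

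Of the 10 other complement receptors and C1q-binding proteins 7 reached 5 CPM. With YB328 3 of them rose and 2 fell, while 1 rose and 3 fell with P. vulgatus, beside 43% and 44% of all genes called. The median log2 ratio of the 7 was -0.06 with YB328 and -0.31 with P. vulgatus. The chains of the integrin receptors for C3 fragments moved unlike each other. Itgax, the alpha chain CD11c of complement receptor 4 and a usual marker of dendritic cells, fell to 75.4 CPM with YB328 and 22.5 CPM with P. vulgatus, against 273 CPM untreated, 3.63-fold (3.44 to 3.83) and 12.1-fold (11.1 to 13.3). Itgam, the alpha chain CD11b of complement receptor 3, stood at 203 CPM with YB328, 95.8 CPM with P. vulgatus and 211 CPM untreated, a fall of 2.20-fold with P. vulgatus (2.09 to 2.32) that was no call with TPM, at a log2 ratio of -0.81. Itgb2, the beta chain that both need, rose 2.24-fold with YB328 (2.17 to 2.32), and its ratio of 1.62 with P. vulgatus was no call.

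Among proteins that bind C1q, Calr, the chaperone calreticulin, rose 2.27-fold with YB328 (2.19 to 2.35), and its 1.65-fold value with P. vulgatus was no call. Lrp1, an uptake receptor that works with calreticulin, rose 2.96-fold with YB328 (2.81 to 3.13) and 2.18-fold with P. vulgatus (2.06 to 2.31), the second a log2 ratio of 0.99 and no call when the scaling used nuclear protein-coding genes. C1qbp, a mostly mitochondrial protein first known for binding C1q, fell 2.48-fold with YB328 (2.28 to 2.71) and 2.59-fold with P. vulgatus (2.37 to 2.83), with log2 ratios of -0.83 and -0.96 and no call with TPM. Cd93, once taken for a C1q receptor, made no call, at 10.7, 9.10 and 11.4 CPM with YB328, with P. vulgatus and untreated.

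**Figure D5:**
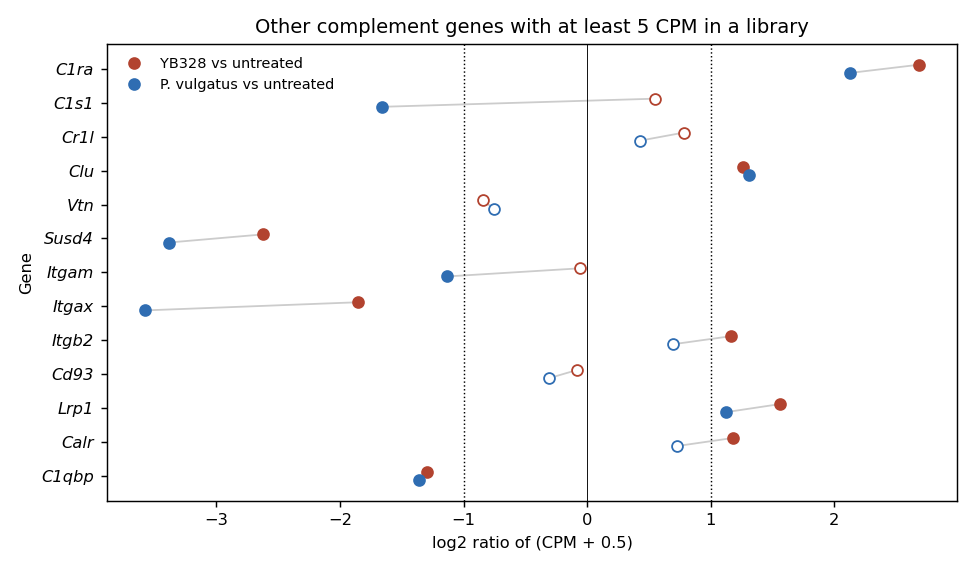
Log2 ratio of CPM plus 0.5 of the 13 other complement genes that reached 5 CPM, for YB328 (red) and P. vulgatus (blue) against untreated cells; filled points are calls and dotted lines mark a log2 ratio of 1 in size. C1ra and Clu lie to the right and Itgax and Susd4 to the left with both bacteria, and C1s1 and Itgam lie apart between the bacteria.

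Serping1 (ENSMUSG00000023224.12, chromosome 2, 84765387 to 84775444, minus strand), the inhibitor of C1r and C1s, was the scarcest of the 9 genes in counts, with 96 counts (3.52 CPM) with YB328, 116 counts (4.38 CPM) with P. vulgatus and 47 counts (3.05 CPM) untreated. It stayed below the minimum, and its ratio to untreated was 1.15 with YB328 (0.806 to 1.67) and 1.44 with P. vulgatus (1.02 to 2.06). Of 15 other regulators 4 reached 5 CPM, and 1 rose and 1 fell with each bacterium. Over all genes tested, 43% were called with YB328 and 44% with P. vulgatus. Clu, which encodes clusterin, a chaperone that blocks the terminal complex, rose to 123 CPM with YB328 and 127 CPM with P. vulgatus, against 50.9 CPM untreated, 2.42-fold (2.23 to 2.61) and 2.50-fold (2.31 to 2.70). Susd4 fell to 13 counts with YB328 and 2 counts with P. vulgatus, against 85 counts untreated, 11.6-fold (6.42 to 22.6) and 72.9-fold (19.6 to 612), but at 5.51 CPM untreated it was too low to pass with TPM or with a minimum of 20 CPM. Cr1l (Crry), the main rodent membrane regulator of C3, stood at 55.3 CPM with YB328, 43.0 CPM with P. vulgatus and 31.9 CPM untreated, no call with CPM and higher with both bacteria in TPM, at log2 ratios of 1.49 and 1.08.

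Transcripts of the terminal pathway were scarce, and 0 of the 8 genes for factor D and this pathway reached 5 CPM. Hc, the mouse gene of C5, had 39 counts (1.43 CPM) with YB328, 89 counts (3.36 CPM) with P. vulgatus and 11 counts (0.713 CPM) untreated, and with no minimum it was called higher with P. vulgatus, at 4.72-fold (2.51 to 9.79). Several genes known from the liver had nearly equal counts at unequal depths, as the albumin gene had: C9 with 27, 24 and 27 counts, C4bp with 32, 33 and 29, Cfi with 37, 36 and 31 and Vtn with 124, 129 and 132 with YB328, with P. vulgatus and untreated. Across the 4 lists of other complement genes, 13 of 48 reached 5 CPM. Of these, 5 rose and 3 fell with YB328, while 3 rose and 5 fell with P. vulgatus. Over all genes tested, 24.5% were higher and 18.4% lower with YB328, and 25% and 19% with P. vulgatus. Without a minimum, 6 of the 48 were higher and 10 lower with YB328, and 5 were higher and 9 lower with P. vulgatus. In that setting 13.1% of all 55487 genes were called with YB328 and 13.5% with P. vulgatus.

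The comparison of YB328 with P. vulgatus takes no ratio to the untreated library, which had a different makeup. The scaling and the minimum of 5 CPM in 1 library still drew on all 3 libraries. Of the 8 genes 1 was called, 12.5%, against 6.28% of all genes, of which 3.4% were higher and 2.88% lower. C3ar1 was 2.12-fold higher with YB328 (95% interval 2.04 to 2.20), a log2 ratio of 1.08 just past the limit of 1. The other 7 lay between 0.895 and 1.42 times. C5ar1 was at 1.42 times (1.28 to 1.57), Cfb at 1.34 (1.31 to 1.37), C1qb at 1.24 (1.15 to 1.34), C3 at 1.23 (1.18 to 1.28) and Cfp at 1.09 (1.04 to 1.15), all without a call. C1qa at 1.16 (0.915 to 1.47) and C1qc at 0.895 (0.773 to 1.04) had intervals that held 1. The median log2 ratio of the 8 was 0.30, beside 0.00 over all genes. Among other complement genes 3 were higher with YB328 and 0 lower: C1s1 (6.28-fold, 4.23 to 9.64), Itgax (3.35-fold, 3.05 to 3.67) and Itgam (2.12-fold, 2.02 to 2.22). The C1s1 call ended with TPM and with a minimum of 20 CPM, and those of Itgax and Itgam held under all 10 alternatives.

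Per length the order of the 9 genes differed between libraries. In the YB328 library it was Cfb, C3ar1, Cfp, C1qb, C3, C5ar1, C1qc, C1qa and Serping1, and in the P. vulgatus library Cfp and C1qb stood above C3ar1, at 75.8, 54.6 and 39.7 TPM. In the untreated library it was Cfp, C1qb, C3, C1qc, Cfb, C5ar1, C1qa, Serping1 and C3ar1. Untreated C1qc at 17.7 TPM, Cfb at 16.0 TPM and C5ar1 at 13.2 TPM were close neighbours in that order.

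The 3 protein-coding genes whose levels over the 3 libraries were nearest to those of C1qa, of 6867 searched, were Adam19, Dusp6 and Prdx3, at distances of 0.0078, 0.0127 and 0.0130 on the centred log2 scale. Those nearest to C3 were Nop53, Socs2 and Ncf1, at 0.0139, 0.0145 and 0.0160. Such a distance compares the sizes of the ratios between 3 libraries and no more, and counting error was left out of it. C1qa had 158 counts with YB328, 132 with P. vulgatus and 119 untreated, so which genes lie nearest to it is uncertain. Adam19 had 20.9 CPM with YB328, 18.2 CPM with P. vulgatus and 27.6 CPM untreated, and Ncf1, a subunit gene of the phagocyte oxidase, had 330.0, 268 and 247 CPM.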

How the data were processed

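RNA was isolated on RNeasy Micro columns, amplified as cDNA by SMART-Seq v4 and turned into libraries by Nextera XT, a kit that does not mark strand, per the labels' protocols. DRAGEN and GRCm38 are named in the submitters' processing notes, without a version or an annotation release. The authors deposited, per the file headers, estimated counts (expected counts, of which 9.99%, 9.38% and 8.86% of genes were not whole with YB328, with P. vulgatus and untreated) and TPM. Of 55487 identifiers 54435 were in GENCODE M21, all with the same coordinates.

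Counts were rounded for size factors and intervals. TMM scaling came from edgeR 4.0.16 in R 4.3.3. Everything else ran in Python 3.11.15 with scipy 1.17.1 and pandas 2.3.3. A single library in each group allows no test between conditions, so there are no p-values. Calls use the rule of size given in the text, with Clopper-Pearson intervals conditional on the sum of both counts. Ratios of ratios have exact conditional odds-ratio intervals. The rule was tried on simulated counts that held counting error only, which cannot show how it handles differences between cultures. A gene at 0 is given with a floor of 3 counts.

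All 9 genes are named, with every listed complement gene at or above 5 CPM, and, for C1qa and C3, the 3 protein-coding genes that reach 20 CPM and lie nearest in log2(CPM + 0.5) centred per gene. The members and lists were chosen with earlier results of these data known. Genes below the minimum that are named were chosen after their values were seen. The alternatives were total count and median-of-ratios scaling, TMM after dropping each library's 10 most abundant genes, nuclear protein-coding genes without Lars2, TPM, no minimum or 20 CPM, 0.1 or 2 CPM added, and thinning.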

Additional observations from a re-analysis of the deposited data

How the results depend on the processing

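The calls for the 9 genes were recomputed under 10 alternatives and kept their side of the rule, with 1 exception. With the deposited TPM 0 complement members were lower with YB328, since Cfp had a log2 ratio of -0.98. The log2 ratio of Cfb lay between 4.25 and 4.43 with YB328 and between 3.77 and 3.99 with P. vulgatus, and that of C3ar1 between 5.31 and 5.74 and between 4.24 and 4.61. C3ar1 with YB328 against P. vulgatus lay between 1.06 and 1.18. The signs of the uncalled C1qa and C5ar1 with YB328 and of C1qb, C3 and C5ar1 with P. vulgatus differed between alternatives. The median of all genes moved by 0.45 (YB328) and 0.35 (P. vulgatus) with TPM and by -0.12 and -0.11 with nuclear protein-coding genes alone.

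Over all genes, 7247, 7471 and 1545 were called with no minimum and 2876, 2938 and 275 with a minimum of 20 CPM, beside 4601, 4706 and 672, for YB328 and P. vulgatus against untreated and YB328 against P. vulgatus, and 419 with 2 CPM added for the last. The alternatives for the other complement genes were chosen after seeing the data. With no minimum, 10 were lower with YB328, 5 were higher and 9 lower with P. vulgatus, and 1 was lower with YB328 than with P. vulgatus. With TPM, 1 was lower with P. vulgatus and 1 lower with YB328 than with P. vulgatus. With a minimum of 20 CPM, 3 were lower with P. vulgatus. A count at 0 or near the floor limits Cfd, C7 and most lectin pathway genes. No paired analysis was possible because each group has 1 library.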
